A study of Schmidtea mediterranea with 152 samples.

Results

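The cells described here are muscle cells from the tail-end regenerating tissue of the planarian Schmidtea mediterranea that held transcripts of 2 genes of the head end, sfrp1 (contig dd_13985) and fz5/8-4 (contig dd_11823). They were chosen by measured values: a blastema non-pole library that reached 50000 reads over the transcripts counted was positive at 20 CPM or more of either gene (CPM, a transcript's reads as a share of its library's, scaled to 1000000 reads), and negative at 0 reads of both. This gave 24 positive and 42 negative cells, with 3 cells between, among the 69 cells at the depth minimum of the 75 blastema non-pole libraries, and the series holds 77 other libraries. The values of sfrp1 and fz5/8-4 are therefore a description of the choice and support nothing further.

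All animals were of the asexual strain CIW4, without any transgene or RNAi, and had been starved before surgery. Blastema cells came from the midline of the posterior blastema, the new tissue at the wound, 72 hours after a transverse tail amputation, and were 75 regenerating non-pole and 5 regenerating pole libraries. Cells of the midline tail tip of uninjured animals were 65 non-pole and 7 pole libraries. Hoechst-stained cells that were not dividing were sorted singly, amplified by SmartSeq2 and screened by qRT-PCR: collagen with wnt1 made a pole cell, and collagen without wnt1 a non-pole muscle cell. No label ties a cell to an animal or plate, so each group is 1 sample, cells are not replicates of a condition, and no test across cells was run.

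Planarian muscle cells carry the positional information of the body as regional expression of position control genes, many of them in the Wnt pathway. Wnt ligand genes such as wnt1 and wnt11-2 are expressed at the tail end and promote tail identity. At the head end, muscle expresses inhibitors and receptors of the pathway, among them sfrp1, a secreted frizzled-related protein that binds Wnt ligands, and fz5/8-4, a frizzled receptor. The comparison asked which other transcripts differed between tail-blastema muscle cells with and without these head-end transcripts.

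The screen decided which wells became non-pole muscle libraries, so its primers, as given in the study's primer list, are shown here in lower case, 5′ to 3′.

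wnt1 forward: gtgacattatgctcaaaggatttcc

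wnt1 reverse: acggacagtgtgataacttaaacg

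collagen forward: ggtgtacttggagacgttggttta

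collagen reverse: ggtctaccttctcttcctggaac

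Positive cells held 67036 to 1296478 reads over these transcripts (median 213662) and negative cells 51801 to 1178594 (median 202666), with a median of 4121 transcripts read in positive cells and 3802 in negative cells. The paper describes the non-pole cells as muscle, and this description held for most cells of both classes. The summed level of the 13 collagens had a median of 58479 CPM in positive and 59979 CPM in negative cells. Collagen stood under 5000 CPM in 1 of 24 positive cells (4.17%) and 5 of 42 negative cells (11.9%). The low positive cell, replicate 23, and 4 of the 5 low negative cells held 6870 to 11241 CPM of agat-1 (dd_920), a marker of epidermal progenitors, while the remaining low negative cell held 0. In the cells above the collagen minimum agat-1 reached at most 11.8 CPM in positive and 74.1 CPM in negative cells. The libraries of low collagen went against that description, and named genes and lists whose calls change without them are given both ways. The study used fewer non-pole cells than there are libraries here, and no label says which it left out, so the cells described include libraries it did not use. Whether those of low collagen are among them is not given.

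sfrp1 was at the threshold in 15 positive cells and fz5/8-4 in 11, and both were at the threshold in 2. By reads, 13 positive cells held sfrp1 alone, 8 held fz5/8-4 alone and 3 held both. sfrp1 ranged over positive cells from 0 to 429 CPM with a median of 79.5 CPM, and fz5/8-4 from 0 to 2032 CPM with a median of 0. The 2 genes were thus mostly read in different cells. The highest 2 values of fz5/8-4, 2032 and 1037 CPM in replicates 64 and 25, stood well above the next, 424 CPM in replicate 37. The positive cells closest to the threshold had 28.8, 29.8, 39.4 and 41.1 CPM of 1 of the genes, and the 3 cells left out between the classes had 6.03, 7.07 and 9.16 CPM. sfrp1 was read in 3 of 11 cells at the fz5/8-4 threshold (27.3%, exact 95% binomial interval 6.02 to 61%) and in 14 of 56 cells with 0 reads of fz5/8-4 (25%, 14.4 to 38.4%), and these wide intervals overlap. Intervals here and below cover counting error only, and PCR reads without molecular identifiers are not independent molecules.

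**Figure D1:**
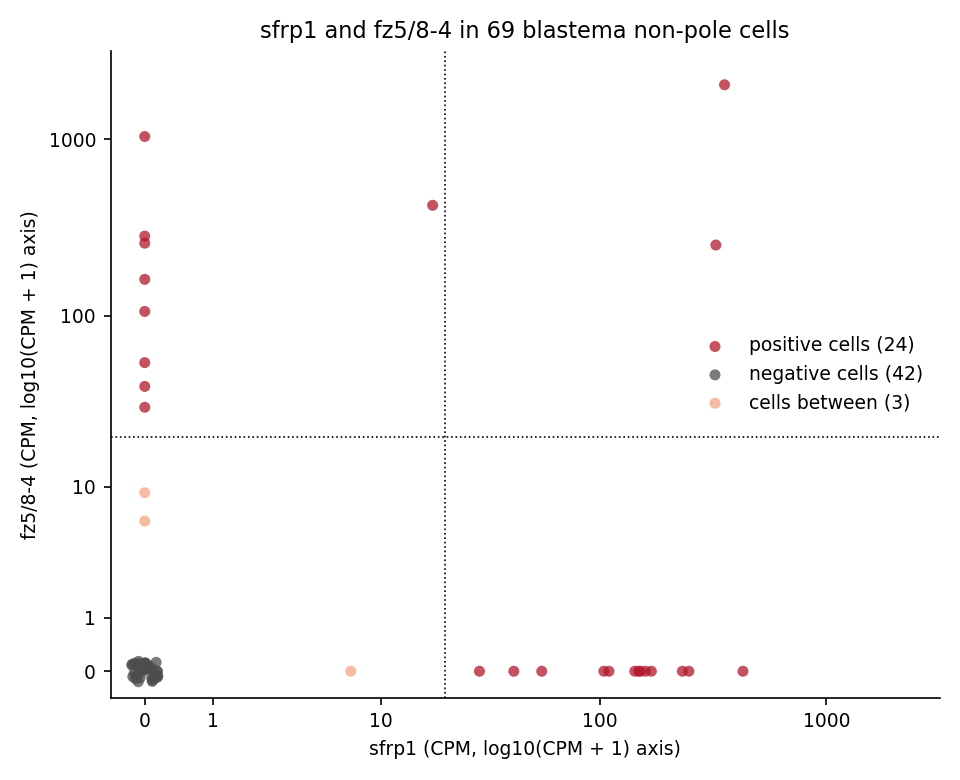
sfrp1 (x axis) and fz5/8-4 (y axis) in CPM on log10(CPM + 1) axes, 1 point for each of the 69 blastema non-pole cells, with negative cells spread slightly around 0 so that they can be seen and dotted lines at 20 CPM. Positive cells lie along the axes, 13 with sfrp1 alone and 8 with fz5/8-4 alone, and 3 hold reads of both.

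Taken as 1 class, cells with head-end transcripts did not lack the tail gene wnt11-2 (dd_16209), a Wnt ligand gene of the planarian tail. It was read in 17 of 24 positive cells (70.8%, 48.9 to 87.4%) and 28 of 42 negative cells (66.7%, 50.5 to 80.4%). Its level ranged from 0 to 1140 CPM with a median of 80.6 CPM in positive cells, and from 0 to 1288 CPM with a median of 95.1 CPM in negative cells. Both classes span the same range. Summed over cells, wnt11-2 had 212 CPM (201.6 to 222.9) in positive and 189 CPM (182 to 197) in negative cells, a log2 fold of 0.16 that went from -0.55 to 0.32 as single cells were left out. After each cell was thinned to 50000 reads it was read in 13 positive (54.2%) and 28 negative cells (66.7%).

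The summed level of wnt11-2 differed among the positive cells, but rested largely on single cells. It was read in 11 of the 13 cells with sfrp1 alone (84.6%, 54.6 to 98.1%), where it summed to 296 CPM, and in 4 of the 8 cells with fz5/8-4 alone (50%, 15.7 to 84.3%), where it summed to 72.2 CPM. These intervals overlap each other and that of the negative cells. Median depth was 224394 reads in cells with sfrp1 alone and 193972 in cells with fz5/8-4 alone. By cells at the threshold of each gene against the same 42 negative cells, the log2 fold of wnt11-2 was 0.53 for sfrp1 and -1.06 for fz5/8-4.

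The other genes of the tail and posterior pole were close to absent in both classes. wnt1 (dd_28398), the Wnt ligand gene of the posterior pole and the gene the screen selected against, had 1 read in positive and 3 reads in negative cells. pitx (dd_15253), a homeobox gene needed at the posterior pole, had 2 reads against 12, and the Wnt inhibitor-like gene wif-like (dd_25158) had 0 reads in both. islet1 (dd_8820), a LIM homeobox gene with a role at the posterior pole, had 0 reads in positive cells, against 12.04 CPM summed over negative cells, from 2 cells at 394 and 486 CPM. Its level was at least 29.2-fold lower in positive cells with the 0 set at 3 reads over the group, but those 2 cells carry that value. The cell at 486 CPM is 1 of the libraries of low collagen, and without these the bound was 16.4-fold, from 1 cell.

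Of the other genes on the head-end list, Frz-d (dd_11650, annotated as a frizzled-related gene) and sfrp3 (dd_11070, secreted frizzled-related) were common in both classes. That list was put together here, and the paper's text places neither of these genes at the head end. Frz-d was read in 23 of 24 positive cells, from 0 to 5103 CPM with a median of 1824 CPM, and in 40 of 42 negative cells, from 0 to 6245 CPM with a median of 1599 CPM. The ranges overlap almost entirely, and the log2 fold of the sums was 0.26 (2206 CPM in positive and 1843 CPM in negative cells). sfrp3 was read in 15 positive and 23 negative cells, with medians of 41.96 CPM in positive and 27.6 CPM in negative cells. Its sums ran the other way, 114.8 CPM (107.1 to 122.8) in positive and 191 CPM (184 to 199) in negative cells, with a log2 fold of -0.73. prep (dd_8606), a homeobox gene of anterior patterning, had 68.2 CPM in positive and 91.7 CPM in negative cells (log2 fold -0.42). fz5/8-2 (dd_17168) had 0 reads in positive cells, against 1 negative cell at 203 CPM, and FZD5 (dd_31236) 0 reads, against 44 reads in 2 negative cells, while fz5/8-3 (dd_16571) had 0 reads in both.

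**Figure D2:**
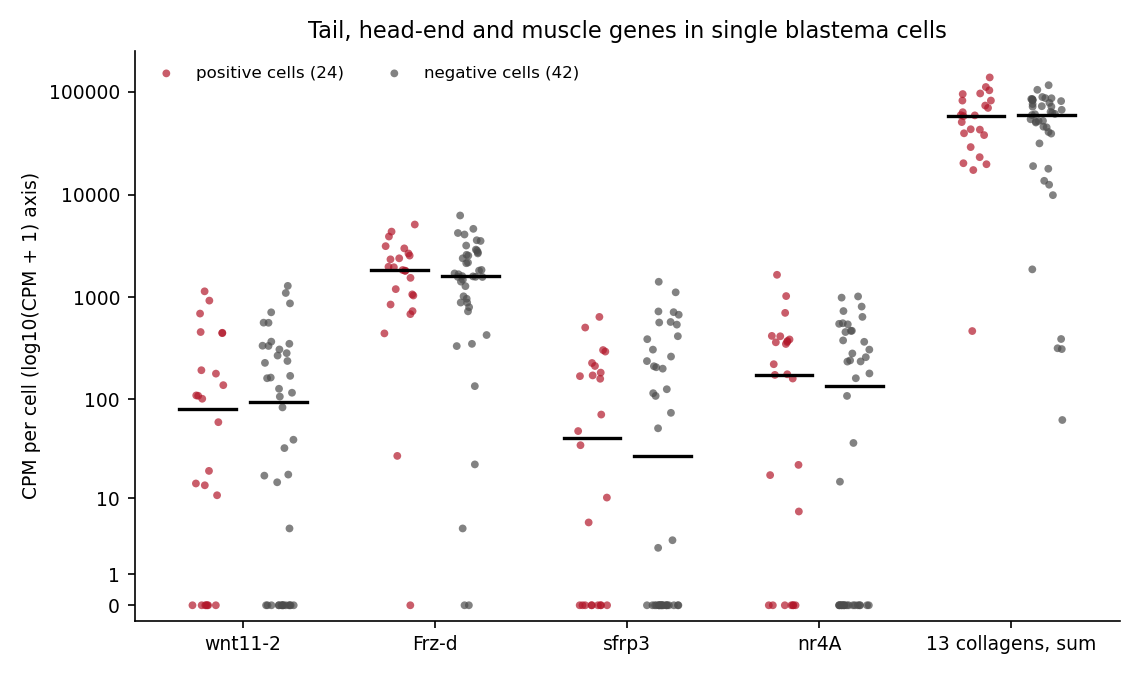
Level per cell, in CPM on a log10(CPM + 1) axis, of wnt11-2, Frz-d, sfrp3, nr4A and the summed 13 collagens in the 24 positive cells (left of each pair) and the 42 negative cells (right), with a bar at the median. The classes overlap for every gene shown, and the cells of low collagen stand apart below 5000 CPM.

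ndl-4, ndk and ndl-5, genes of the FGF receptor-like nou-darake family that are expressed toward the head, were found almost entirely in a single cell. ndl-4 (dd_12674) had 310 reads in positive cells, against 7 reads in negative cells, ndk (dd_11285) 94 against 0, and ndl-5 (dd_5102) 43 against 3. A transcript was called higher at a log2 fold of 1 or more, on summed CPM with 1 CPM added, together with a larger share of cells with a read after thinning, and lower by the mirror rule. By this rule 3 of the 8 genes compared of the head-end list were called higher and 2 lower, and the list median was -0.08. That list includes Frz-d and sfrp3. Of all 13551 transcripts compared, 17.3% were higher and 22.4% lower, at a median of -0.10. All reads of ndl-4 and ndk in positive cells, and 38 of the 43 of ndl-5, were in replicate 64, so these calls are values of 1 cell. Without it ndl-4 had a log2 fold of -0.66, under the read minimum. None of the 5 genes of the head-end list still compared was then higher, 2 were lower and the list median was -0.87.

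Replicate 64 was also the cell with the highest fz5/8-4. It held 1599 CPM of ndl-4, 485 CPM of ndk, 196 CPM of ndl-5, 2032 CPM of fz5/8-4 and 356 CPM of sfrp1, from 193912 reads. In the other cells at the depth minimum ndl-4 reached at most 26.2 CPM, ndk 41.2 CPM and ndl-5 10.6 CPM. The same cell had the highest level of zic-2 (dd_15531, 1418 CPM against at most 625 CPM elsewhere), a zinc finger transcription factor gene on the anterior pole list, and of TBX1 (dd_26182, 1661 CPM against at most 283 CPM), a T-box factor gene. It held the 13 collagens at 59290 CPM and no read of wnt11-2 or Frz-d. Over the study's head-tip lists, chosen in other libraries of tissue pieces, it was the highest cell for 3 of the contigs that reached 50 CPM in some cell (2.63%), while the other cells were highest for 0 to 7 with a median of 1. Over all transcripts at that level it was highest for 208 (1.55%), while the other cells were highest for 32 to 443 with a median of 193. Not every gene of the head-end and anterior pole lists was high in it. There sfrp3 at 505 CPM ranked 10 among the 69 cells and prep at 82.5 CPM ranked 20, follistatin had 1 read, and notum and foxD had 0.

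The anterior pole is a cluster of muscle cells at the head tip. Its gene notum (dd_24180), which encodes a Wnt-inhibiting enzyme, was read in 1 positive cell at 58.05 CPM, against 6 negative cells at 4.36 to 583 CPM, a log2 fold of -1.68. zic-2 was read in 2 positive cells, at 13.1 and 1418 CPM, against 8 negative cells at 1.97 to 625 CPM (log2 fold -0.40). follistatin (dd_9584), which encodes an inhibitor of activins, summed to 53.8 CPM (48.6 to 59.4) in positive cells and 22.9 CPM (20.3 to 25.8) in negative cells, a log2 fold of 1.20 (0.59 to 1.90 as single cells were left out, and 0.38 after thinning). It was read in 7 of 24 positive and 10 of 42 negative cells, which is 29.2% and 23.8%. Among positive cells it was read in 5 of the 13 with sfrp1 alone, in 0 of the 8 with fz5/8-4 alone and in 2 of the 3 with both. foxD (dd_23249), a forkhead gene of the anterior pole, had 0 reads in both classes, and zicA (dd_22585) 1 read in positive cells, against 0 in negative cells. Of the 3 anterior pole genes compared, 1 was higher and 1 lower, while 17.3% of all transcripts were higher and 22.4% lower. The lower one, notum, passed back under the 2-fold mark, at -0.93, when a single cell was left out.

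The list of the wider Wnt pathway shares the frizzled genes, notum and wnt11-2 with the lists above. Of its 13 members compared 1 was higher (7.69%) and 3 were lower (23.1%), and the median was -0.29. Among all transcripts 17.3% were higher and 22.4% lower. The higher member was Vang-2 (dd_11237), a membrane protein of planar cell polarity, at 189 CPM (180 to 200) in positive and 83.9 CPM (78.8 to 89.2) in negative cells, a log2 fold of 1.17 that went from 0.60 to 1.47 as single cells were left out. After thinning it was 0.0057, which is no call, and for cells at the sfrp1 threshold -0.13. Its reads lay mainly in cells with fz5/8-4 alone, at 497 CPM summed, against 74.1 CPM in cells with sfrp1 alone. The median over the cells with fz5/8-4 alone was 68.7 CPM, and the highest of them reached 895 and 809 CPM, so few cells carry that sum. Vang-2 was read after thinning in 12 of 24 positive cells (50%) and 20 of 42 negative cells (47.6%), so the classes differ in its sum and hardly in how many cells hold it.

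The receptor tyrosine kinase gene ror (dd_7911) was read in 15 of 24 positive and 17 of 42 negative cells and summed to 246 CPM (234 to 257) in positive and 152.4 CPM (145.5 to 159.6) in negative cells, a log2 fold of 0.68. It too was higher in cells with fz5/8-4 alone (517 CPM) than in those with sfrp1 alone (132.2 CPM). beta-catenin-1 (dd_2688), the transducer of canonical Wnt signalling, had a log2 fold of 0.44, and NLK-1 (dd_4172), a Nemo-like kinase, of 0.50. The Wnt receptor gene ryk (dd_12594) stood at -0.77, and the contigs annotated as Evi/Wls, which carries Wnt ligands out of the cell, at -0.66 (dd_11629) and -0.29 (dd_9546). None of these 6 reached the 2-fold mark. The 3 lower members, fz5/8-2, FZD5 and notum, are those described above, read in 1, 2 and 6 negative cells.

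Across all transcripts, 2340 of 13551 were higher (17.3%), 3031 lower (22.4%) and 8180 neither. These counts were mostly made by transcripts read in few cells. Of the 5442 transcripts read in under 10 of the 66 cells, 23% were higher and 38.7% lower, while of the 2815 read in 30 or more cells 6.32% were higher and 4.4% lower. The median called transcript had 49.6% of its reads in a single cell. When the log2 fold had to stay past the mark with any single cell left out, 778 transcripts stayed higher (5.74%) and 1453 lower (10.7%). Without the cells of low collagen 2462 were higher and 2396 lower of 12650 compared, so the excess of lower calls was not seen there. With the 15 cells at the sfrp1 threshold as positive 2099 were higher and 3744 lower. With the 11 cells at the fz5/8-4 threshold the counts were 2280 and 3881. These 2 sets share 2 cells and 830 higher calls, which are 39.5% of the sfrp1 and 36.4% of the fz5/8-4 ones. The part of the unequal class sizes in these splits was not tested.

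**Figure D3:**
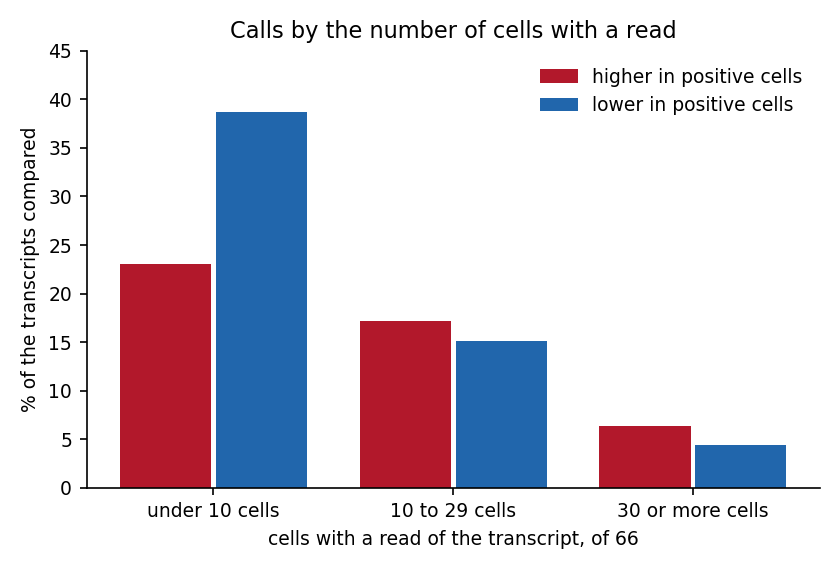
Percentage of transcripts called higher or lower in positive cells (y axis) by the number of the 66 cells with a read (x axis). The share falls from 23% higher and 38.7% lower under 10 cells to 6.32% and 4.4% at 30 or more cells.

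The most prominent higher transcripts are described by the values that chose them: called, at least 100 reads, read after thinning in at least 30% of positive cells and past 2-fold with any single cell left out, which 216 transcripts met. dd_12878 was largest, with 110.6 CPM (103.1 to 118.5) in positive and 2.93 CPM (2.04 to 4.07) in negative cells, a log2 fold of 4.83, and was read after thinning in 9 of 24 positive and 3 of 42 negative cells. dd_6174 followed with a log2 fold of 4.40, read after thinning in 8 positive cells and 1 negative cell. Neither contig has a gene name in the study's annotation.

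FER (dd_3349), a tyrosine kinase of the cytoplasm, had the largest log2 fold of the annotated transcripts, 3.79 (3.17 to 4.43 as single cells were left out). It summed to 56.7 CPM (51.3 to 62.4) in positive and 3.18 CPM (2.25 to 4.36) in negative cells, reached 779 CPM in positive and 266 CPM in negative cells, and was read after thinning in 10 of 24 positive cells (41.7%) and 3 of 42 negative cells (7.14%). FER was read in 7 of the 8 cells with fz5/8-4 alone (87.5%, 47.3 to 99.7%) and 3 of the 13 with sfrp1 alone (23.1%, 5.04 to 53.8%), and these intervals overlap. Its summed level was 75.7 CPM in cells with fz5/8-4 alone and 53.2 CPM in cells with sfrp1 alone, and its log2 fold was 3.91 for cells at the fz5/8-4 threshold and 3.49 for those at the sfrp1 threshold.

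The next contigs, dd_2726, dd_5566, dd_11040, dd_6833, dd_6526, dd_3850 and dd_10096, had log2 folds of 3.74 down to 3.23. The last of them is annotated with a von Willebrand factor A domain and the others carry no name. dd_5566 was read after thinning in 12 positive and 5 negative cells, and its log2 fold was 3.93 for cells at the sfrp1 threshold and 0.64 for those at the fz5/8-4 threshold. dd_11040 leaned to the fz5/8-4 cells, with 4.22 for fz5/8-4 and 2.27 for sfrp1.

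Among the annotated transcripts SNRPE (dd_741), a core protein of spliceosomal particles, was the most widely read. It was found after thinning in 19 of 24 positive cells (79.2%, 57.8 to 92.9%) and 15 of 42 negative cells (35.7%, 21.6 to 52%), with medians of 100 CPM in positive and 0 CPM in negative cells. Its sums were 235 CPM (224 to 247) in positive and 43.7 CPM (40.1 to 47.6) in negative cells, a log2 fold of 2.40 that was 3.27 without the cells of low collagen, and it was 2.78 for cells at the sfrp1 threshold and 2.46 for those at the fz5/8-4 threshold. HMCN1 (dd_2783), hemicentin of the extracellular matrix, had 179 CPM in positive and 33.7 CPM in negative cells (log2 fold 2.38), and its log2 fold was 0.98 after thinning, under the 2-fold mark. MRPL18 (dd_2647), of the mitochondrial ribosome, had a log2 fold of 2.07, and VPS13D (dd_6654), a lipid transfer protein, of 2.06, and both were higher for cells at the sfrp1 threshold (2.54 and 2.56) and lower for those at the fz5/8-4 threshold (-0.92 and -1.60). After thinning MRPL18 stood at 2.30 and VPS13D at 0.52. The others of this rule were TMEM259 (dd_6306, 2.91), OSGEPL1 (dd_5895, 2.70), CCDC102B (dd_13699, 2.32) and the cdk6-like dd_9430 (1.45). Replicate 10 held 52.1% of the reads of OSGEPL1 and 45.5% of those of HMCN1. With any single cell left out their log2 folds were at least 1.54 and 1.36.

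**Figure D4:**
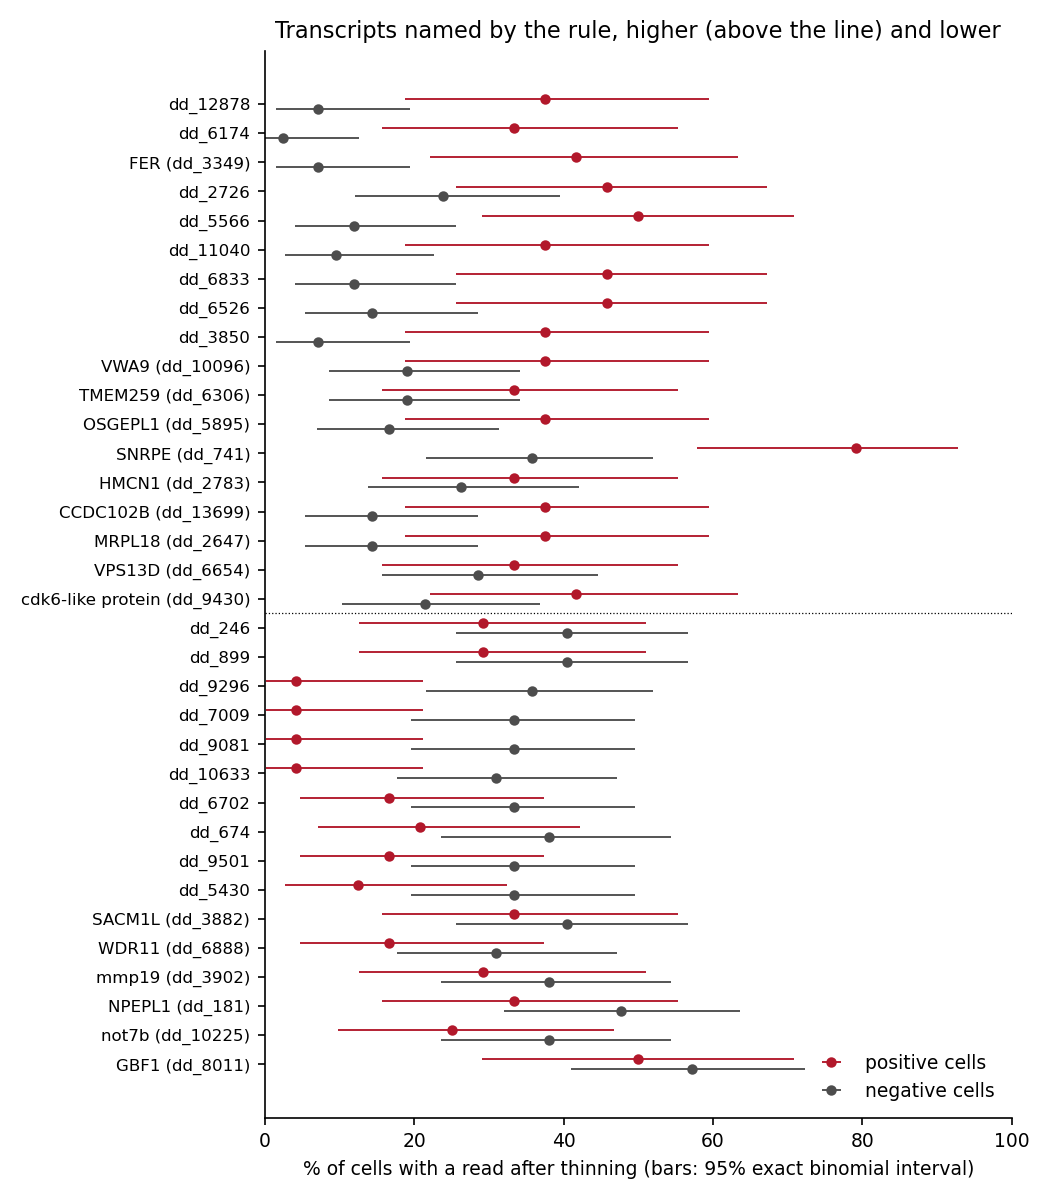
Percentage of positive and negative cells with a read after thinning to 50000 reads (x axis), with exact 95% binomial intervals, for the transcripts chosen by rule as higher (above the dotted line) and lower (below it). Since these shares were part of the choice, the plot is a description. SNRPE has the highest share in positive cells, 79.2%, against 35.7% in negative cells.

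The lower transcripts, chosen by the mirror rule, opened with contigs that rest on the libraries of low collagen. dd_246 had a log2 fold of -4.64 and dd_899 of -4.26, and without those libraries they stood at -0.67 and -0.31 and were not called. dd_899 reached 16583 CPM in the low positive cell and 20255 to 38677 CPM in the 4 negative cells that held agat-1. dd_674 had a log2 fold of -3.41, which was -2.33 without these libraries. The remaining 7 contigs, dd_9296, dd_7009, dd_9081, dd_10633, dd_6702, dd_9501 and dd_5430, had log2 folds of -4.15 to -3.17, were lower without the low libraries too, and carry no name. Of these 7, dd_7009 had the fewest reads, 8 in 2 positive cells, against 334 in 14 negative cells. The other 6 had 18 to 54 reads in 4 to 6 positive cells, against 501 to 971 reads in 15 to 19 negative cells.

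The annotated lower transcripts were SACM1L (dd_3882, log2 fold -2.58), a phosphoinositide phosphatase of the secretory pathway, WDR11 (dd_6888, -2.54), a WD repeat protein, mmp19 (dd_3902, -1.96), a matrix metalloproteinase, the aminopeptidase NPEPL1 (dd_181, -1.82), not7b (dd_10225, -1.76) and GBF1 (dd_8011, -1.66), an exchange factor of Golgi traffic. GBF1 was the most abundant, at 69.2 CPM (63.3 to 75.5) in positive and 220 CPM (212 to 229) in negative cells, with medians of 18.6 CPM in positive and 21.9 CPM in negative cells. It was read after thinning in 12 of 24 positive (50%) and 24 of 42 negative cells (57.1%), so the classes differ more in its sum than in how many cells hold it, and its log2 fold was -0.58 after thinning. mmp19 had a log2 fold of -3.50 for cells at the sfrp1 threshold and -1.04 for those at the fz5/8-4 threshold.

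The collagens and contractile genes hardly differed between the classes. Both classes had passed the screen for collagen, so similar collagen levels are in part given by that selection. None of the 13 collagens was called, with a median log2 fold of 0.08. Calls were also rarer among widely read transcripts, with 6.32% higher and 4.4% lower of those read in 30 or more cells. Of the 14 contractile genes 1 was lower, a titin contig (dd_3381) read in 3 positive and 4 negative cells, and the median was 0.10. MhcA (dd_432), a myosin heavy chain, had a log2 fold of 0.11 and the calponin CNN2 (dd_333) of 0.01. The nuclear receptor gene nr4A (dd_12229) was read in 17 of 24 positive and 24 of 42 negative cells and summed to 274 CPM (262 to 286) in positive and 278 CPM (269 to 288) in negative cells, a log2 fold of -0.02. The longitudinal muscle regulator myoD (dd_12634) had a log2 fold of 0.40, nkx1-1 (dd_19327), a regulator of circular muscle, of -0.26, and the RNA-binding gene qki (dd_11601) of 0.01. Of 8 genes that the study placed under nr4A control 2 were lower (25%), mmp19 and the carbonic anhydrase gene ca12 (dd_11683, -2.90), and none was higher. Among all transcripts 22.4% were lower and 17.3% higher, so the lower share of this list lies near the background. Without the cells of low collagen 3 of the 8 were lower, with dd_2972 at -1.07, against -0.89 with them. Of 10 other matrix genes HMCN1 was higher, and 2 were lower, mmp19 and the perlecan gene HSPG2 (dd_3527), which had 0 reads in positive cells, against 30 reads in 1 negative cell.

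In the BMP and activin pathway 3 of 7 genes were called higher and 1 lower, and their median was -0.12, while 17.3% of all transcripts were higher. The higher ones were follistatin, the pseudoreceptor gene bambi (dd_11062), with 110 CPM in positive and 44.1 CPM in negative cells and a log2 fold of 1.30, and the BMP inhibitor gene noggin 1 (dd_15423), with a log2 fold of 2.72 that came from 2 positive cells and 1 negative cell. bambi was read in 10 of 24 positive and 17 of 42 negative cells, and its log2 fold was 0.19 with 1 cell left out and 0.80 after thinning, so neither its call nor that of follistatin held there. The lower one was the type I receptor gene ACVR1 (dd_7151, -2.90), read in 2 positive and 8 negative cells.

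For the next lists the background is again 17.3% of all transcripts higher and 22.4% lower. Of 5 Notch genes 1 was lower (20%), the ligand gene DLL1 (dd_13823, -1.97), whose log2 fold was 0.089 after thinning. NOTCH1 (dd_10716) summed to 497 CPM in positive and 388 CPM in negative cells (0.36). Without the cells of low collagen 1 Notch gene was higher, MIB2 (dd_2453, 1.06 against -0.02 with them). Neither of the 2 Hedgehog genes was called. Of 13 genes of netrin, slit and ephrin guidance 3 were higher (23.1%, against 17.3% of all transcripts) and none lower, and the median was 0.48. The higher ones were SLIT2 (dd_11533), read in 1 cell of each class, EPHB1 (dd_27668), in 6 positive and 4 negative cells, and EPHA4 (dd_16928), in 5 positive and 2 negative cells. All 3 passed back under the mark when some single cell was left out. Without the cells of low collagen 4 guidance genes were higher, with a second EPHA4 contig (dd_16483) at 1.46, against 0.97 with them. Of 10 cadherins 2 were higher and 1 was lower, PCDH9 (dd_7930), which fell under the read minimum without the cells of low collagen, where FAT4 (dd_19860) was the 1 lower at -1.10. The protocadherin contig dd_14613 was read in 2 positive cells, with 73 of its reads in replicate 64, and summed to 15.7 CPM, against 0 in negative cells.

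Of 13 other transcription factors 2 were higher (15.4%) and 6 lower (46.2%), while 17.3% of all transcripts were higher and 22.4% lower. Without the cells of low collagen the counts were 3 and 3 of 11 compared, with the tlx1-like dd_13781 at 1.17, against -1.46 with them. Without replicate 64 they were 1 and 7. The higher ones were TBX1, whose log2 fold of 2.13 was 0.34 with 1 cell left out, and tbx20 (dd_19890), a T-box gene with 395 reads in 8 positive cells, against 257 reads in 6 negative cells (log2 fold 1.30). The lower ones included ISL2 (dd_35379, -4.35), a LIM homeobox gene with 6 reads in 2 positive cells, against 434 reads in 5 negative cells, and the snail-like dd_10216 (-1.95, and -0.92 with 1 cell left out), read in 5 positive and 6 negative cells. Of 8 genes that the study's text names as pole genes 1 was higher and 2 were lower, and 1 and 1 of 7 without the cells of low collagen, while its members kallmann1 (dd_13188) and DCC (dd_7195), a netrin receptor gene, had log2 folds of 0.93 and 0.40.

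**Figure D5:**
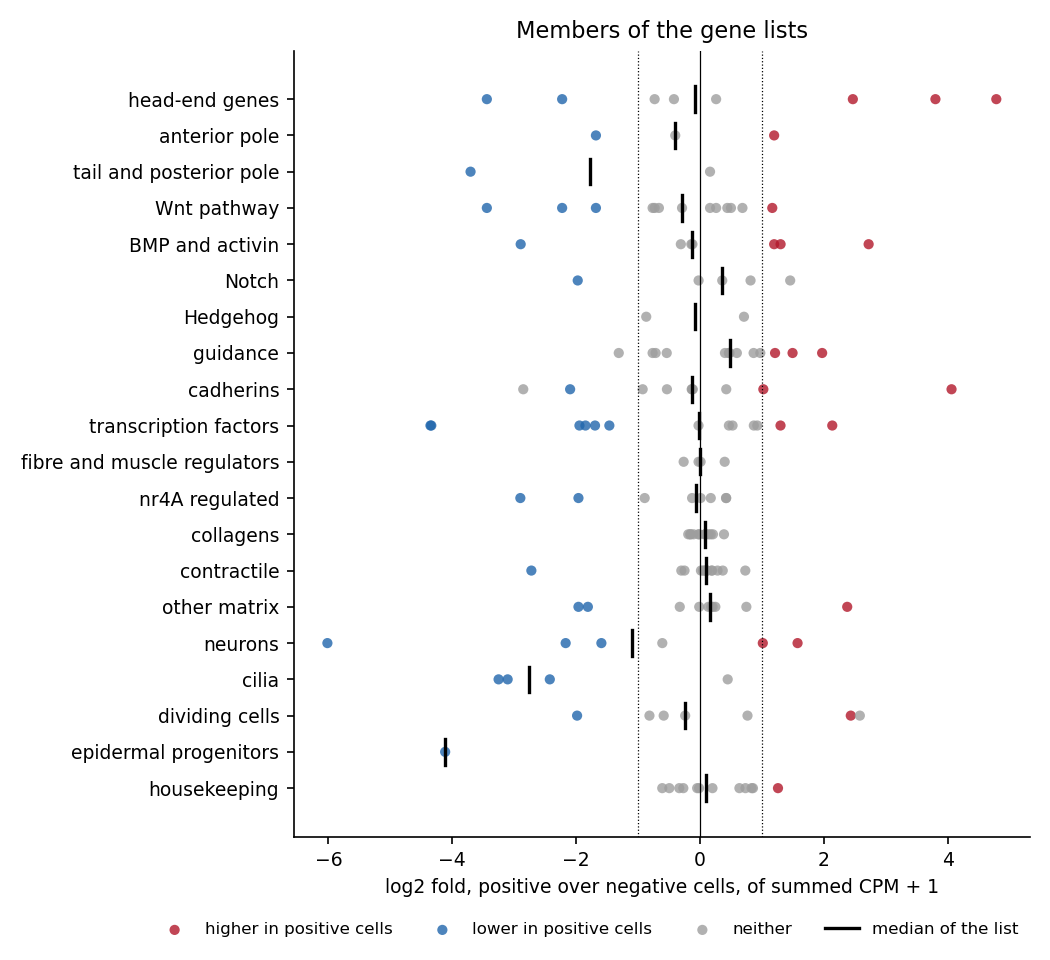
Log2 fold of summed CPM with 1 CPM added, positive over negative cells (x axis), for each member compared of 20 gene lists (rows), coloured by call, with a bar at each list's median and dotted lines at the 2-fold marks. Collagens and contractile genes lie close to 0, with medians of 0.08 and 0.10, while the 3 higher head-end genes are values of replicate 64.

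The study's head-tip lists come from tissue pieces and so from other libraries. Of 90 contigs of the uninjured head-tip list 13 were higher (14.4%) and 17 lower (18.9%), and the list median was 0.09, and of 47 contigs of the blastema head-tip list 7 were higher (14.9%) and 13 lower (27.7%), at a list median of -0.47. The study's tail pole list was chosen on libraries of this series and is no independent evidence of a direction. Of its contigs compared, 26 were higher (18.2%) and 38 lower (26.6%), and their median was -0.12. The shares of these lists lie near the 17.3% higher and 22.4% lower of all transcripts. Without the cells of low collagen the counts of higher and lower contigs were 15 and 14 for the uninjured head-tip list, 6 and 11 for the blastema head-tip list, and 27 and 28 for the tail pole list.

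Markers of other cells differed through few libraries. The background for these lists is 17.3% of all transcripts higher and 22.4% lower, or 23% and 38.7% of those read in under 10 cells. agat-1 summed to 69.6 CPM in positive and 1223 CPM in negative cells (log2 fold -4.11), was read in 6 of 24 positive and 9 of 42 negative cells, and fell under the read minimum without the cells of low collagen. Of 4 cilia genes compared 3 were lower, with summed levels of 0 to 37.7 CPM in positive and 0 to 338 CPM in negative cells and a median of 0 in both, and without the cells of low collagen 1 was left to compare and was not called. Of 6 neuron markers compared 2 were higher, KCND3 (dd_12407, log2 fold 1.57) among them, and 3 lower. Their summed level ranged from 0 to 449 CPM in positive and from 0 to 2664 CPM in negative cells, with medians of 79.7 CPM in positive and 53.5 CPM in negative cells. The glutamate receptor gene GRIA1 (dd_13399) had 0 reads in positive cells, against 762 reads in 3 negative cells, and 6 of the 12 neuron markers, GAD1 among them, had 0 reads in all cells compared. Of 7 genes of dividing cells 1 was higher and 1 lower (14.3% each, against 17.3% and 22.4% of all transcripts). Their summed levels were 0 to 1226 CPM in positive and 0 to 750 CPM in negative cells. Of 12 housekeeping genes 1 was higher, UBE2N (dd_1075, 1.26, and 0.52 after thinning), and the median was 0.09. The part of these other cells in the calls above, beyond the values without the cells of low collagen, was not tested.

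Outside the blastema the same rule found few cells. At 20 CPM or more of sfrp1 or fz5/8-4 were 24 of 69 blastema non-pole cells (34.8%, 23.7 to 47.2%) and 3 of 53 uninjured non-pole cells (5.66%, 1.18 to 15.7%). After thinning to 50000 reads the counts were again 24 of 69 and 3 of 53. These shares rest on the values that chose the cells and on 1 sample a group, so they are a description of these cells and no test of the conditions. Uninjured non-pole cells were the deeper ones, with a median of 444246 reads, against 218403 reads in blastema non-pole cells. No pole cell was positive: 0 of 5 in the blastema, which allows a share of up to 60% with the limit of a count of 0 set at 3 cells (exact binomial upper limit 52.2%), and 0 of 7 in uninjured tails, which allows up to 42.9% (40.96%). Animal and plate cannot be told apart from the condition, since no label gives them.

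The 3 uninjured positive cells sat close to the threshold, at 22.5 CPM of fz5/8-4, 23.9 CPM of sfrp1 and 49.6 CPM of fz5/8-4, below most of the blastema values. Their wnt11-2 was 0, 1903 and 29.3 CPM and their Frz-d 2150, 9.54 and 910 CPM, so here too wnt11-2 was present beside a head-end transcript. The collagens summed to 50789 to 76548 CPM in them. FER had 66.7 CPM in the uninjured positive and 3.24 CPM in the 47 uninjured negative cells, but was read in 1 of the 3 positive cells, and SNRPE had 0 CPM in the positive and 60.5 CPM in the negative ones. Of the 18 transcripts named above as higher, 6 had more CPM in the uninjured positive than in the uninjured negative cells (33.3%), while 21.4% of all transcripts compared did. Of the 778 that stayed higher with any single cell left out, 17.6% did. Of the 16 named as lower 12 had less (75%), while 76.1% of all transcripts did. These values come from 3 cells, in which most transcripts have no read.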

How the data were processed

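The authors deposited 1 table of raw read counts per transcript contig of the dd_Smed_v4 assembly, with a column for each of the 152 libraries. Bowtie (without a version), Trimmomatic 0.32 and CASAVA 1.7.0 are listed in the notes of the submitters, and the counting tool and its handling of reads that fit several contigs are not given in the sources used here. Contigs of shared name or sequence may therefore share reads. A second deposited table holds the authors' SCDE comparison of pole with non-pole cells, of which only the contig identifiers were used, not the values. The 6 count rows outside that table stayed out of totals; in blastema non-pole libraries they held 22.0% (contig 4_1), 38.4% (contig 7_0), 16.2% (mitochondrial RNA), and under 0.001% in the 3 others. Rows of 1 contig number were summed, giving 26399 transcripts. No genome was used, so no positions are given.

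Libraries of blastema non-pole cells held 156 to 1296478 reads on these transcripts, and 6 of 75 were under 50000. Pairs of libraries in a group were compared by a chi-square over transcripts. It was at least 17.0 per degree of freedom in blastema non-pole cells, while 6 uninjured non-pole pairs at 1.26 to 6.14 were summed to 1 cell each, leaving 53 cells. Positive and negative cells were compared as summed CPM with exact Poisson intervals, log2 folds with 1 CPM added, exact binomial intervals of cell shares, and shares after thinning each cell to 50000 reads (seed 1). Transcripts needed at least 20 summed reads. The 21 gene lists, and the study's own lists, were chosen with earlier results of these data known, as were the members.

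Named transcripts were the 10 of largest log2 fold in each direction among those called, with at least 100 reads, a read in at least 30% of the thinned cells of the higher class and a fold kept past 2 with any single cell left out, then the 10 with a gene name by the same filters (6 met this among lower ones), all members of the head-end, pole, tail and Wnt lists, and up to 4 of each other list; other members named in the text were chosen after their values were seen. The comparison was also run on simulated data, but the outcome is not given here and nothing is drawn from it. Python 3.11.15, numpy 2.4.6, pandas 2.3.3, SciPy 1.17.1 and matplotlib 3.10.9 were used, and edgeR 4.0.16 in R 4.3.3 for the TMM factor of an alternative. Alternatives changed the added CPM, the weighting and scaling of cells, the read and depth minimums, the threshold, the gene of the rule and the cells of low collagen, and left out each positive cell.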

Additional observations from a re-analysis of the deposited data

How the results depend on the processing

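Against 2340 transcripts higher and 3031 lower, adding 10 CPM gave 1019 and 1091, a minimum of 100 summed reads 1451 and 1654, thinning all cells to 50000 reads before summing 1353 and 1446, and requiring the fold with any single cell left out, an alternative chosen after seeing the data, 778 and 1453. Leaving out each positive cell gave 2198 to 2387 higher and 3073 to 3201 lower, and both counts stayed within 1.5 times under the other alternatives, among them TMM scaling (2298 and 3060) and 50 CPM as threshold (2142 and 3209). Without cells of low collagen the split was 2462 higher and 2396 lower. Of the 71 called transcripts followed through the alternatives, 8 changed sign, in 11 values: for cells at the fz5/8-4 threshold MRPL18 (-0.92), VPS13D (-1.60) and DCHS1 (-1.69), for cells at the sfrp1 threshold Vang-2 (-0.13) and EPHB1 (-0.023), with the mean of single cells PCDH9 dd_7930 (0.12) and DCHS1 (-0.076), after thinning DLL1 (0.089), PCDH9 dd_7930 (0.30) and DCHS1 (-0.14), and without replicate 69 EPHA4 dd_16928 (-0.66). The cause was not tested. Of the 39 followed that were not called, 23 changed sign, among them wnt11-2 (-1.06) for cells at the fz5/8-4 threshold and ryk (0.81) after thinning. The profile of replicate 64 and values without it were also chosen after seeing the data. No paired analysis was possible because the replicate numbers only name cells and no test was run. With 24 positive cells, a gene read in few cells depends on which cells were drawn, which no interval here covers.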
